A study of Saccharomyces cerevisiae with 177 samples.

Results

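A set of 10 genes of trehalose and glycogen metabolism in budding yeast, Saccharomyces cerevisiae, was followed across a series of newly made RNA profiles in which Mediator subunits and other transcription factors were depleted or mutated. The genes were TPS1, TPS2, TPS3, TSL1, NTH1, PGM2, GSY1, GSY2, GLC3 and GPH1, chosen by name, and they are 10 of the 5794 genes in each deposited table. All 10 had a value in each of the 177 libraries. Each comparison tested only the genes that passed its filter on low values, so the number of the 10 that was tested is given with each count.

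Trehalose and glycogen are the storage carbohydrates of yeast, and trehalose also protects proteins and membranes under heat and other stresses. Trehalose is made by a complex in which Tps1 joins UDP-glucose and glucose phosphate, Tps2 removes the phosphate, and Tps3 and Tsl1 are regulatory subunits. Glycogen is extended by glycogen synthase and branched by a separate enzyme. Many genes of both pathways carry stress response elements, short promoter motifs bound by the transcription activators Msn2 and Msn4, whose nuclear entry is held back by protein kinase A in cells growing on glucose.

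RNA had been labelled for 5 min with 4-thioU, a uridine analogue, in mid-log cells that had been growing in synthetic complete medium kept at 30 °C. All strains were of mating type alpha and carried the auxotrophic markers Dade2::hisG, leu2D0, lys2D0, met15D0, trp1D63 and ura3D0, and all but SHY825, whose label gives D200 alone, carried his3D200. In the 22 degron comparisons, 3IAA (3-indoleacetic acid, an auxin that triggers breakdown of a protein fused to an IAA7 degron) was set against DMSO in the same strain, which also carried pGPD1-OSTIR::HIS3, the auxin receptor gene. The fused protein was Ccl1, the cyclin of the TFIIH kinase, in strain CCL1. It was a single Mediator subunit in the strains named Cdk8 (gene SRB10), Med1, Med5, Med7, Med9, Med10, Med12, Med14, Med15, Med16, Med17, Med19 and Med31. It was a pair of proteins in Med1_5, Med2_15, Med15_Med16 and Med15_Taf1, where Taf1 is a subunit of TFIID. In Med7C and Med7N, the C-terminal or the N-terminal piece of a split Med7 carried the degron on a plasmid over a chromosomal med7 deletion. The strain named TID had a chromosomal MED14 deletion, a plasmid with Med14 lacking TID and a plasmid with TID on the degron, while the label of Med14C gives a degron fusion of chromosomal MED14 and a degron on plasmid-borne Med14 lacking TID. RPB3-3xFlag::NATMX was a further allele of CCL1, CDK8, Med1, Med5, Med1_5, Med2_15, Med7, Med10, Med12, Med14, Med14C, Med15, Med16, Med17 and the stress libraries. The genotype given for the Med31 libraries names a MED19 degron, and the library titles were followed.

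In the 6 mutant comparisons, med15del (Dgal11::HPH) and med16del (Dsin4::TRP1) were set against WT (BY4705), and these 3 strains had no auxin receptor. The mutants med7N_del (plasmid med7DN) and Med7_EWE3 (plasmid med7 EWE3) were set against Med7_WT, Med21_EWE4 (plasmid med21 EWE4) against Med21_WT, and Med6_delH1 (plasmid med6 without helix 1) against Med6_WT. Mutants and controls of these 4 comparisons carried pGPD1-OSTIR::HIS3 and a chromosomal deletion of the gene on the plasmid. In the 5 stress comparisons, the Med15 degron strain was labelled HS or SM, each with IAA (Med15 depleted) or DMSO, or no_stress with DMSO. The labels do not spell out HS and SM. Each group had 3 libraries, except for Med7_EWE3, Med21_EWE4 and Med21_WT with 2 each. The labels do not say that libraries came from separate cultures, so p-values measure the spread between libraries, which may be technical. No 3IAA-treated strain without a degron was analysed here, so a response to 3IAA itself and a response to depletion cannot be told apart.

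The 15 stress libraries held 4384651 to 10032201 counts. Whole reads could be recovered from 106 of the 162 other libraries, whose totals were 2119071 to 10714175, and the depth of the other 56 is unknown. MF(ALPHA)1, the main alpha pheromone gene, was above the median gene in 177 of 177 libraries. Of the other alpha-specific genes, STE3 was above the median gene in 160 and MF(ALPHA)2 in 102. Of the a-specific genes, MFA1, MFA2, STE2 and BAR1 were above it in 0 and STE6 in 2. The deleted genes had little signal: GAL11 (Med15) had 0.66 to 1.05 in med15del, against 78.9 to 83.2 in WT, and SIN4 (Med16) had 0.13 to 0.17 in med16del, against 23.5 to 25.2 in WT. A degron acts on the protein, so the RNA of the fused gene does not check a depletion. In these bulk profiles, fewer cells that make an RNA and less RNA made per cell cannot be told apart.

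Each of the 10 genes is a single exon. In the R64 (sacCer3) annotation they lie on 7 chromosomes: TPS1 (YBR126C) at chrII:488905-490392, TPS2 (YDR074W) at chrIV:593893-596583, TPS3 (YMR261C) at chrXIII:790205-793369, TSL1 (YML100W) at chrXIII:70624-73920, NTH1 (YDR001C) at chrIV:450220-452475, PGM2 (YMR105C) at chrXIII:475897-477606, GSY1 (YFR015C) at chrVI:174265-176391, GSY2 (YLR258W) at chrXII:660716-662833, GLC3 (YEL011W) at chrV:133120-135234 and GPH1 (YPR160W) at chrXVI:861306-864014. The core of the stress response element, AGGGG on either strand, occurred at least 2 times in the 500 bases before the start codon in 10 of the 10 genes, and in 8.31% of the 5791 yeast promoters of that length. At least 3 matches were in 6 of the 10, and in 1.90% of promoters. TPS1 had 6, TSL1 and PGM2 had 5 each, TPS2 had 4, NTH1 and GLC3 had 3 each, and TPS3, GSY1, GSY2 and GPH1 had 2 each. The letters TATAAA on either strand were in 9 of the 10 and in 60.1% of promoters, TPS2 being without a match. The heat shock element, as GAA, TTC and GAA with any 2 bases in each gap, on either strand, was in TSL1 alone, and in 1.45% of promoters. No match of one motif overlapped a match of another among the 10 genes. A match is a description of the letters, not a shown binding site.

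The 300 bases that hold the AGGGG matches are shown for the 4 genes that lie at the ends of the responses described here: TSL1 and PGM2, which were among the 3 largest rises under HS, GSY1, which rose least there, and TPS3, which moved least in many of the depletions. They are read in the direction of the gene from the RefSeq R64 genome, and AGGGG or its reverse complement CCCCT is in capitals. The TSL1 stretch is chrXIII:70246-70545 on the plus strand, and the PGM2 stretch is chrXIII:477713-478012 on the minus strand. The GSY1 stretch is chrVI:176559-176858 on the minus strand, and the TPS3 stretch is chrXIII:793370-793669 on the minus strand, ending at the base before the start codon.
TSL1: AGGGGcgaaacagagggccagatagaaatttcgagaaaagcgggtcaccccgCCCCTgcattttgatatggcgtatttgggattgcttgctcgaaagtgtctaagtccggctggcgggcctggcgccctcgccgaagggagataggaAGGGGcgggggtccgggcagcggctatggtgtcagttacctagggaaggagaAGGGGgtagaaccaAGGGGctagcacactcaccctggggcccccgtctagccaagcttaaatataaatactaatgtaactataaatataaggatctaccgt
PGM2: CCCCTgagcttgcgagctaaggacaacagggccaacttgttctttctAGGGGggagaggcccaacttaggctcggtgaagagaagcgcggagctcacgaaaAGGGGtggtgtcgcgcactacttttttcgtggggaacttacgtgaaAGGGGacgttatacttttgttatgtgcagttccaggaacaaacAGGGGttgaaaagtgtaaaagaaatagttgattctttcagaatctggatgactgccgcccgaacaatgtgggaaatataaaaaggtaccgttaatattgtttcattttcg
GSY1: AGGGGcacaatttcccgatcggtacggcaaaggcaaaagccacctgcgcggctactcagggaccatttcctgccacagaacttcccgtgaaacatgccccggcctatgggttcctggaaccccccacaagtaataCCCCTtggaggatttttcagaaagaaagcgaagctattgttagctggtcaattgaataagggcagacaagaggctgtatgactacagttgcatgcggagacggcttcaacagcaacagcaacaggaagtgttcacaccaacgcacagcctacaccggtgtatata
TPS3: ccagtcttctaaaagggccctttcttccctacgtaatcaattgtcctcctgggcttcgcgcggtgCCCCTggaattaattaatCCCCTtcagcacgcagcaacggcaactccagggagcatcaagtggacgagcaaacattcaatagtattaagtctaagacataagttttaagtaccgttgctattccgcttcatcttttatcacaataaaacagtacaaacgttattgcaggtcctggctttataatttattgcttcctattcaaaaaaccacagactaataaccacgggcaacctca
The TSL1 and PGM2 stretches hold 5 matches each on both strands, and the GSY1 and TPS3 stretches hold 2 each. GPH1, which rose most under HS and is not shown, has 2 matches as well. Whether the number of matches goes with the response was not tested.

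**Figure D1:**
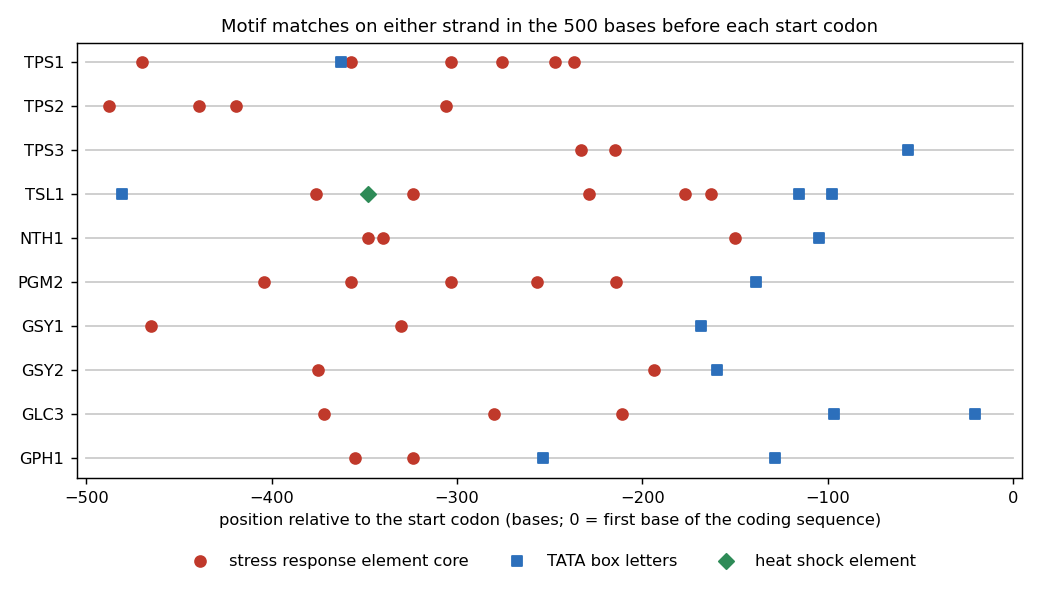
Positions of motif matches on either strand, in bases relative to the start codon, for the 10 genes; circles mark the AGGGG core, squares the TATAAA letters and the diamond the heat shock element in TSL1. Every gene has at least 2 circles, and TPS1 has the most with 6.

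Levels were compared between genes as mean signal per kb of coding sequence in 27 control groups, the DMSO and wild-type groups outside the stress experiment. TPS1 and TPS2, the enzymes of trehalose synthesis, had the highest median levels, 106 and 93.8 signal per kb, and TPS1 was the higher of the pair in 17 of 27 groups. TSL1 followed with 62.8, NTH1, the neutral trehalase that breaks trehalose down, with 56.1, and GSY2, the major glycogen synthase, with 52.6. The order of TSL1 and NTH1 held in 16 of 27 groups, and NTH1 was above GSY2 in 9 of 27, although its median was higher. Below these came TPS3 with 20.9, GSY1, the minor glycogen synthase, with 17.4, PGM2, which interconverts glucose phosphates, with 14.5, GLC3, the branching enzyme, with 10.7, and GPH1, glycogen phosphorylase, with 4.77. GSY2 was above TPS3 in 27 of 27 groups, and in 25 of them the libraries did not overlap. TPS3 was above GSY1 in 19 of 27 groups, and in 4 groups all libraries of GSY1 were above those of TPS3. GSY1 was above PGM2 in 21, PGM2 above GLC3 in 27 and GLC3 above GPH1 in 23 of the 27 groups. The order changed when levels were not divided by length, with TPS2 before TSL1 and TSL1 before TPS1. Signal is on a scale set by the authors for each library on a basis not given in the sources used here, so levels are also given as the percentile among 5792 genes per kb in the same group. TSL1 ranged widely between control groups, from percentile 17.1 in Med7_WT to 95.2 in Med7C treated with DMSO. GPH1 ranged between 7.61 in WT and 65.3 in Med7C treated with DMSO, and TPS1 stayed between 56.4 and 94.6.

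**Figure D2:**
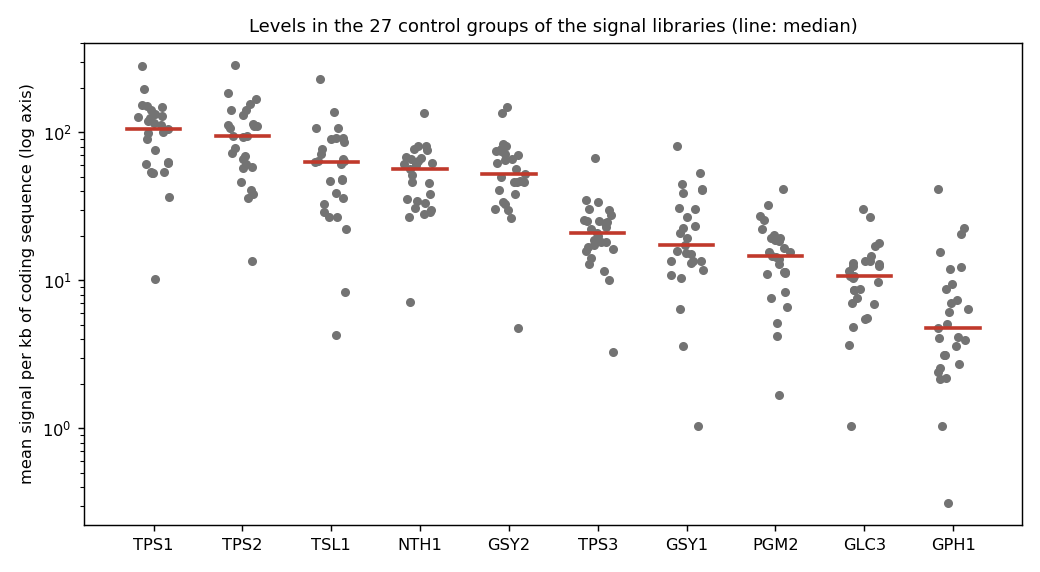
Mean signal per kb of coding sequence (log axis) of the 10 genes in 27 control groups, 1 dot per group, with a line at the median. TPS1 and TPS2 sit highest with medians of 106 and 93.8, GPH1 lowest with 4.77, and neighbouring genes overlap.

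The stress libraries address how these genes respond to the conditions labelled HS and SM, with Med15 and without it. Under HS with Med15 present, 10 of 10 genes rose against no_stress, where 36.9% of the 5547 genes tested rose (edgeR quasi-likelihood test, adjusted p under 0.05). Their median log2 change was 1.57, and that of all genes was -0.004. Under SM, 8 of the 10 fell against the same no_stress libraries and none rose, where 26.2% of all genes fell. The 2 comparisons share their no_stress libraries.

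Under HS, the regulatory subunit gene TSL1 had 1898, 2278 and 3125 CPM (counts scaled by edgeR to a common library total after TMM), against 307, 449.8 and 247 CPM in no_stress, a 7.24-fold rise (log2 change 2.86, SE 0.22, adjusted p = 1.7e-09). PGM2 had 202, 227 and 341 CPM under HS, against 31.9, 42.9 and 30.8 CPM in no_stress (log2 change 2.85, SE 0.19, adjusted p = 2.3e-10). GPH1, the phosphorylase that releases glucose from glycogen, had 86.2, 74.7 and 133 CPM, against 8.54, 14.5 and 11.4 CPM in no_stress (log2 change 3.09, SE 0.24, adjusted p = 2.2e-09). These 3 had the largest rises, 7.23-fold for PGM2 and 8.5-fold for GPH1, and none of their HS libraries overlapped with the no_stress libraries. Of the other genes of trehalose synthesis, TPS1 rose by 1.56 (SE 0.14), TPS2 by 1.02 (SE 0.12) and TPS3 by 0.94 (SE 0.084) on the log2 scale. The trehalase gene NTH1 rose by 1.33 (SE 0.10). The glycogen synthase GSY2 rose by 1.99 (SE 0.15) and the branching enzyme GLC3 by 1.57 (SE 0.20). Genes for making and for breaking down both carbohydrates thus rose in the same libraries. GSY1 rose least, with 38.7, 47 and 88.1 CPM under HS, against 41.3, 43.1 and 23.9 CPM in no_stress (log2 change 0.64, SE 0.26, adjusted p = 0.032). Its groups overlapped, and the call was lost without HS replicate C (adjusted p = 0.36) or without no_stress replicate C (adjusted p = 0.14). HS replicate C was the highest of the 3 HS libraries for all 10 genes.

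Of 21 other genes of the 2 pathways, 14 rose and 3 fell under HS, the largest rise being HXK1, a hexokinase (log2 change 3.86), and the largest fall PCL7, a cyclin of the Pho85 kinase (-0.40). Of 20 known Msn2/4 targets, 19 rose and 0 fell, between 0.64 for SOD2, a mitochondrial superoxide dismutase, and 11.38 for HSP12, a membrane-protecting stress protein. A log2 change as large as that of HSP12 rests on a low no_stress level, which is not given here, so its size is uncertain. Of 12 regulators of the stress response, 6 rose and 4 fell, with TPK3, a catalytic subunit of protein kinase A, at -0.67.

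Under SM, TSL1 fell to 93.6, 131 and 135 CPM, against 307, 449.8 and 247 CPM in no_stress (log2 change -1.496, SE 0.22, adjusted p = 2e-05). TPS1 fell to 137, 152 and 133 CPM, against 288, 369 and 265 CPM in no_stress (log2 change -1.13, SE 0.15, adjusted p = 4.4e-06). The 2 groups did not overlap for either gene. TPS2 fell by a log2 change of -0.87 (SE 0.13) and TPS3 by one of -0.38 (SE 0.086), so that all 4 genes of the trehalose synthase complex fell. NTH1 (-0.38, SE 0.10), PGM2 (-0.67, SE 0.22), GSY1 (-0.82, SE 0.28) and GLC3 (-0.76, SE 0.22) also fell, but without no_stress replicate B none of these 4 passed the threshold, and TPS1, TPS2, TPS3 and TSL1 were the 4 genes called. GSY2 (-0.066, SE 0.15, adjusted p = 0.74) and GPH1 (-0.10, SE 0.30, adjusted p = 0.8) did not pass the test, and their groups overlapped. Of the 21 other pathway genes, 1 rose (NTH2, a second neutral trehalase, 0.35) and 5 fell, led by GLK1, glucokinase (-1.92). Of the 20 Msn2/4 targets, 1 rose (HOR2, a glycerol phosphatase, 0.65) and 8 fell, led by HSP104, a disaggregase (-2.21). Of the 12 regulators, 1 rose (MSN4, 1.11) and 6 fell. Set directly against SM, HS was higher for 10 of 10 genes, where 38.9% of all genes were higher. The difference was smallest for TPS3 (log2 1.32, SE 0.084) and largest for TSL1 (log2 4.35, SE 0.24), a 20.4-fold difference. Among the listed genes of that comparison, the extremes were GLK1 (3.89) and PCL8 (-0.37) of the pathway, and HSP12 (8.54) and SOD2 (1.503) of the Msn2/4 targets, and MSN4 (-0.98) was the lowest of the regulators.

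**Figure D3:**
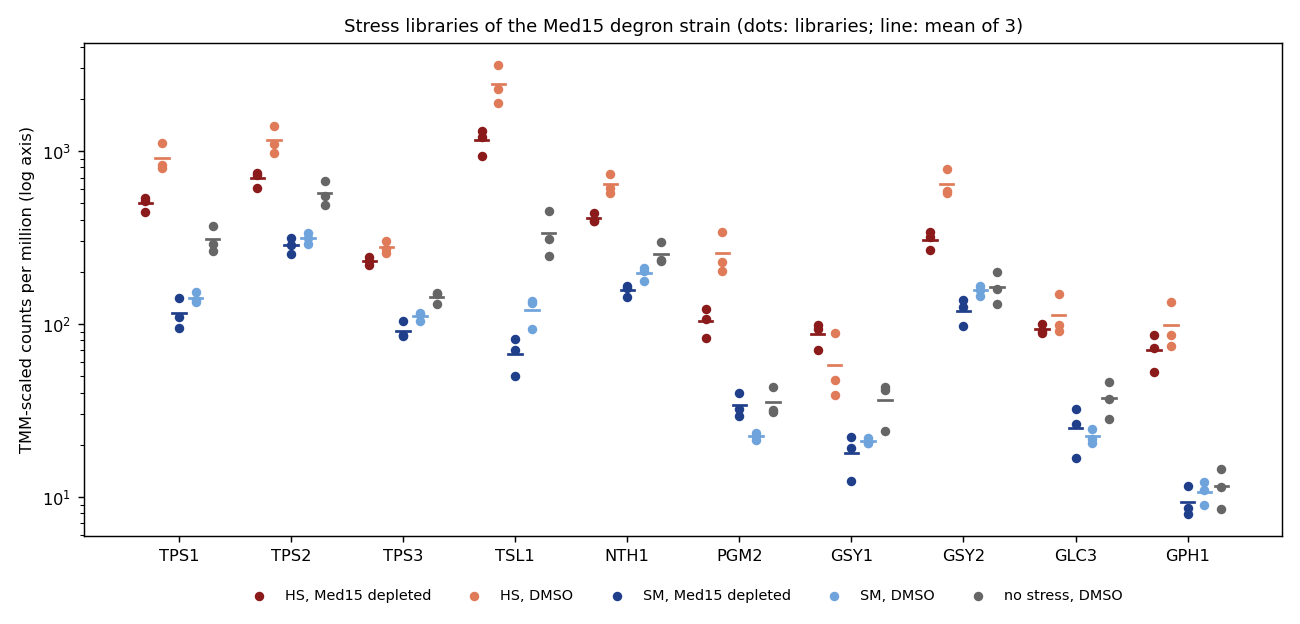
TMM-scaled CPM (log axis) of the 10 genes in each of the 15 stress libraries, with a line at each group mean of 3 libraries. TSL1 under HS with DMSO is highest at 1898 to 3125, and all 10 genes are higher in the HS libraries with DMSO than in the SM libraries with DMSO.

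Depletion of Med15, a Mediator tail subunit contacted by activators, lowered 7 of the 10 genes under HS (IAA against DMSO, both under HS), where 19.1% of all genes fell. PGM2 fell to 82.2, 107 and 121 CPM in depleted cells, against 202, 227 and 341 CPM in DMSO cells (log2 change -1.31, SE 0.16, adjusted p = 4.2e-06). TSL1 fell to 937, 1196 and 1304 CPM, against 1898, 2278 and 3125 CPM in DMSO cells (log2 change -1.09, SE 0.20, adjusted p = 0.00037). GSY2 fell to 265, 316 and 338 CPM, against 569.6, 581 and 786 CPM in DMSO cells (log2 change -1.07, SE 0.14, adjusted p = 8.4e-06). For each of the 3, every depleted library was below every DMSO library. TPS1 (-0.87, SE 0.14), TPS2 (-0.73, SE 0.12) and NTH1 (-0.65, SE 0.10) fell too. TPS3 fell least (-0.26, SE 0.081, adjusted p = 0.017) and was not called without IAA replicate A (adjusted p = 0.069) or without DMSO replicate C (adjusted p = 0.091). GLC3 (-0.26, SE 0.18, adjusted p = 0.27) did not pass. GPH1 (-0.47, SE 0.19, adjusted p = 0.06) and GSY1 (0.61, SE 0.24, adjusted p = 0.051) did not pass either, but both were called with the replicate letter as a block (adjusted p = 0.011 for GPH1 and 0.029 for GSY1), with GSY1 the one of the 10 that was higher in depleted cells. Depleted cells under HS had 937 to 1304 CPM of TSL1, against 247 to 450 CPM in no_stress cells with Med15, a difference that was not tested.

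In the same comparison, 1 of the 21 other pathway genes rose (PIG2, a phosphatase targeting subunit, 0.27) and 8 fell, led by GLK1 (-1.38). Of the 20 Msn2/4 targets, 2 rose and 14 fell, from SSA4, an Hsp70 chaperone that is also driven by the heat shock factor (2.28), to HSP12 (-1.86). Of the 12 regulators, 2 rose and 2 fell, with MSN4 at 0.51.

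Under SM, Med15 depletion lowered 4 of the 10 genes and raised 1, where 27.1% of all genes fell and 21.0% rose. With 10 genes, both counts lay near these shares. TSL1 fell to 49.9, 81.4 and 70.4 CPM in depleted cells, against 93.6, 131 and 135 CPM in DMSO cells (log2 change -0.82, SE 0.23, adjusted p = 0.007), and it was the only one of the 10 still called whichever 1 library was left out. TPS3 (-0.27, SE 0.087), NTH1 (-0.32, SE 0.10) and GSY2 (-0.38, SE 0.15) fell. PGM2 rose to 32.1, 29.4 and 39.5 CPM, against 22.4, 21.2 and 23.5 CPM in DMSO cells (log2 change 0.59, SE 0.21, adjusted p = 0.026). TPS1 (-0.29, adjusted p = 0.11), TPS2 (-0.12, adjusted p = 0.43), GSY1 (-0.22, adjusted p = 0.55), GLC3 (0.17, adjusted p = 0.55) and GPH1 (-0.19, adjusted p = 0.6) did not pass. The count fell to 2 without IAA replicate A, IAA replicate C or DMSO replicate C, and to 1 without DMSO replicate B. Of the 21 other pathway genes, 8 rose, led by SGA1, a sporulation glucoamylase (1.37), and 5 fell, led by HXK1 (-1.24). Of the 20 Msn2/4 targets, 1 rose (TFS1, a carboxypeptidase inhibitor, 0.79) and 7 fell, led by GPD1, a glycerol phosphate dehydrogenase (-2.07). Of the 12 regulators, 3 rose and 4 fell, with MSN4 at 0.34.

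The effect of Med15 depletion differed between HS and SM for 4 of the 10 genes, as tested in 1 edgeR fit, where 28.5% of all genes differed. The difference, HS minus SM, was -1.91 (SE 0.27, adjusted p = 3.8e-05) on the log2 scale for PGM2, which had moved in opposite directions. It was -0.69 (SE 0.21) for GSY2, -0.61 (SE 0.18) for TPS2 and -0.58 (SE 0.20) for TPS1. For TSL1 the difference was -0.26 (SE 0.31, adjusted p = 0.56) and did not pass.

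Without stress, the log2 of signal plus 1 was tested by limma on the deposited scale, where a shift shared by all genes counts as a change, and again after TMM scaling, which removes such a shift. Loss of the kinase module of Mediator, which carries the cyclin-dependent kinase Cdk8 and its regulator Med12, went with higher levels. Depletion of Med12 raised 10 of 10 genes, where 12.5% of the 4481 genes tested rose. Depletion of Cdk8 raised 5 of the 10 and lowered none, where 7.53% of all genes rose. After TMM scaling, the counts were 9 for Med12, where 9.89% of all genes rose, and 6 for Cdk8, where 10.3% did, all higher.

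In the Med12 strain, TSL1 had a signal of 258, 257 and 193 with 3IAA, against 129, 125 and 99.9 with DMSO (log2 change 0.99, SE 0.12, adjusted p = 0.00017). GSY1 had 56.5, 59.7 and 55.4 with 3IAA, against 21.1, 24.2 and 20.7 with DMSO (log2 change 1.34, SE 0.089, adjusted p = 1.1e-06). GPH1 had 18.6, 20.2 and 12.7 with 3IAA, against 5.96, 7.13 and 4.8 with DMSO (log2 change 1.37, SE 0.17, adjusted p = 0.00018), the largest change of the 10. Every DMSO library of GPH1 was under the filter value of 10, so GPH1 entered the count only through its 3IAA libraries. It was also called without the filter. The 3IAA and DMSO libraries did not overlap for any of the 10 genes, though overlap was not counted over all genes. GLC3 (1.09, SE 0.11), GSY2 (0.97, SE 0.11), PGM2 (0.90, SE 0.12), TPS2 (0.81, SE 0.076) and NTH1 (0.49, SE 0.088) lay between. TPS1 (0.32, SE 0.076) and TPS3 (0.26, SE 0.078) rose least, and their calls were not stable: TPS1 was lost without 3IAA replicate A or B (adjusted p up to 0.079), and TPS3 when any 1 of 5 of the 6 libraries was left out and after TMM scaling (adjusted p = 0.089).

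In the Cdk8 strain, TSL1 had 339, 337 and 274 with 3IAA, against 211, 203 and 219.9 with DMSO (log2 change 0.58, SE 0.09, adjusted p = 0.00078). TPS2 (0.53, SE 0.10), GSY1 (0.71, SE 0.13), GSY2 (0.57, SE 0.089) and GPH1 (0.94, SE 0.15) also rose, each without overlap between 3IAA and DMSO libraries. The DMSO mean of GPH1 was under the filter value of 10, so here too GPH1 was tested only through its 3IAA libraries. TPS1 had 156, 158 and 147 with 3IAA, against 150.5, 159 and 163 with DMSO, and TPS3 had 59.9, 53.5 and 53.7 with 3IAA, against 56.8, 59.9 and 54.6 with DMSO. Both had overlapping groups (log2 changes -0.033, SE 0.072, and -0.035, SE 0.08). Whether the Cdk8 and Med12 changes differ was tested in 1 fit: 0 of the 10 genes passed with limma, where 0.395% of all genes did, and 0 passed after TMM scaling; with the replicate letter as a block, 7 passed, all lower in Cdk8, where 2.41% of all genes were, but the letters do not pair these libraries. At an unadjusted p under 0.05, 9 of the 10 differed, and the share of all genes at that threshold was not counted.

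Depletion of Med9, a subunit of the middle module, raised 9 of 10 genes, where 37.4% of all genes rose, and 9 after TMM scaling, where 23.2% rose. TSL1 had 314, 253 and 248 with 3IAA, against 176, 154 and 149 with DMSO (log2 change 0.76, SE 0.08, adjusted p = 9.2e-08), and the groups did not overlap. TPS3 was the exception, with 34.6, 31.2 and 29.8 with 3IAA, against 35.3, 30.6 and 29.6 with DMSO (log2 change 0.0027, SE 0.076).

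**Figure D4:**
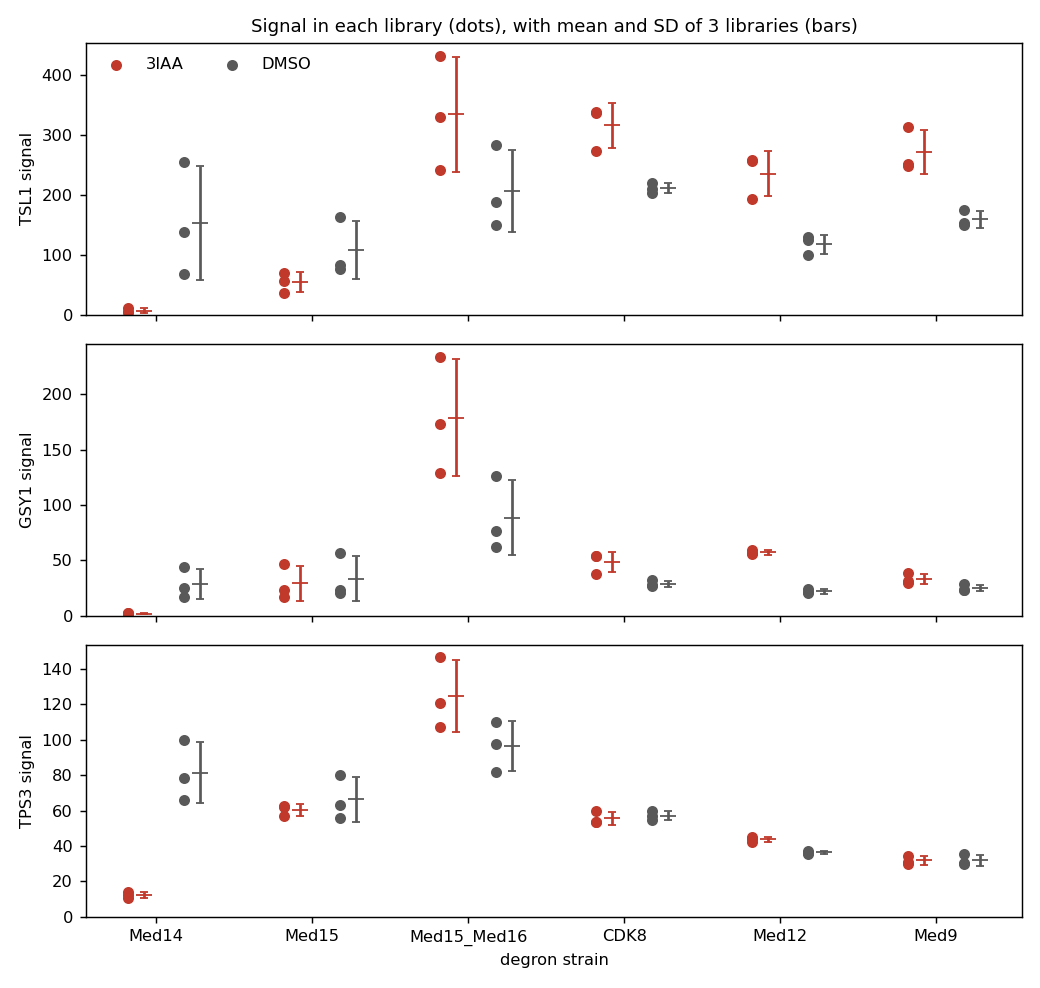
Signal of TSL1, GSY1 and TPS3 in each library of 6 degron strains, 3IAA (red) left of DMSO (grey), with the mean and SD of 3 libraries. TSL1 is higher with 3IAA in Cdk8, Med12, Med9 and Med15_Med16 and lower in Med14 and Med15, while TPS3 means lie closer together outside Med14.

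Depletion of Med15 alone lowered 3 of 9 genes tested, where 4.45% of the 4088 genes tested fell. TSL1 had 70.6, 55.6 and 36.8 with 3IAA, against 164, 83.8 and 76.1 with DMSO (log2 change -0.94, SE 0.19, adjusted p = 4.4e-05). PGM2 had 27, 20.8 and 16.4, against 50.03, 29.2 and 24.8 with DMSO (-0.64, SE 0.20, adjusted p = 0.034), and GSY2 had 61.1, 47.8 and 45.8, against 108, 66.5 and 66.8 with DMSO (-0.61, SE 0.19, adjusted p = 0.034). The groups did not overlap for TSL1 and GSY2 and overlapped for PGM2, and DMSO replicate A was the highest DMSO library for all 10 genes. The count was 1 without 3IAA replicate B or DMSO replicate A, 0 without 3IAA replicate C, and 1 with the replicate letter as a block, where 3.18% of all genes fell and TSL1 was still called (adjusted p = 0.0039) and PGM2 (adjusted p = 0.16) and GSY2 (adjusted p = 0.22) were not. TPS1 (-0.43, SE 0.19), TPS2 (-0.38, SE 0.19), TPS3 (-0.12, SE 0.19), NTH1 (-0.32, SE 0.19), GSY1 (-0.17, SE 0.20) and GLC3 (-0.19, SE 0.20) did not pass, and GPH1 was below the filter. Of 16 other pathway genes tested, 0 rose and 2 fell, HXK1 (-1.86) and GLK1 (-1.08). Of 8 Msn2/4 targets tested, 1 rose, PRX1, a mitochondrial peroxiredoxin (1.01), and 2 fell, led by GPD1 (-1.32). Of 12 regulators, 0 rose and 0 fell by limma at the adjusted threshold, with 0 at an unadjusted p under 0.05.

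With Med15 and Med16 depleted together, the direction turned: 7 of 10 genes rose and none fell, where 11.2% of all genes rose. TSL1 had 433, 330.3 and 242 with 3IAA, against 283, 188 and 150.1 with DMSO (log2 change 0.70, SE 0.12, adjusted p = 4.2e-07). GSY1 had 234, 173 and 129, against 127, 76.4 and 62.3 with DMSO (1.03, SE 0.12, adjusted p = 8.8e-16), and GLC3 had 81.7, 65.2 and 44.4, against 40.4, 26 and 18.7 with DMSO (1.17, SE 0.13, adjusted p = 2.6e-18), the largest change. The 3IAA and DMSO libraries overlapped for TSL1 and not for GSY1, GLC3 or PGM2 (0.59, SE 0.13). GPH1 (0.85, SE 0.14), GSY2 (0.45, SE 0.12) and TPS3 (0.36, SE 0.12) rose too. TPS1 (0.26, adjusted p = 0.0022 with the block), TPS2 (0.23, 0.0052) and NTH1 (0.22, 0.016) did not pass in the fit without the block. With the block 10 of 10 were called, where 21.2% of all genes rose. Without DMSO replicate C, 3 genes were called, and after TMM scaling 8 were, TPS1 among them, where 18.4% of all genes rose.

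The change in Med15_Med16 was above that in Med15 for 7 of the 10 genes in 1 fit over both strains, where 2.27% of all genes were above. The difference was 1.64 (SE 0.25, adjusted p = 3.4e-07) on the log2 scale for TSL1, 1.36 (SE 0.25) for GLC3 and 1.22 (SE 0.25) for PGM2. The strains differ also in RPB3-3xFlag::NATMX, which Med15_Med16 lacks, and in their control levels: GSY1 had 127, 76.4 and 62.3 with DMSO in Med15_Med16 and 56.6, 23.6 and 20.2 with DMSO in Med15. Depletion of Med16 alone, another tail subunit, raised 1 of 9 genes tested, GLC3 (0.62, SE 0.18), where 1.17% of all genes rose. NTH1 was lowest (0.0011, SE 0.18). With the replicate letter as a block 4 were called, TPS2, GSY1, GSY2 and GLC3, all higher, where 8.01% of all genes were. The count was 0 without 3IAA replicate A or B or DMSO replicate B or C, 3 without DMSO replicate A, 4 without 3IAA replicate C, and 0 after TMM scaling and by edgeR on recovered reads. The Med16 change was above the Med15 change for 2 of 9 genes, TSL1 (1.11, SE 0.29, adjusted p = 0.016) and GSY2 (1.09, SE 0.27, adjusted p = 0.0092), where 1.61% of all genes were above. Depletion of Med2 and Med15 together raised 3 of 10 genes, where 44.6% of all genes rose. They were GSY1 (1.21, SE 0.28, adjusted p = 0.0062), GLC3 (0.58, SE 0.23) and TPS3 (0.38, SE 0.14). TSL1 was lowest (-0.23, SE 0.25), and its replicate C libraries, 863 with 3IAA and 1200.3 with DMSO, were the highest of their groups, and 3IAA and DMSO libraries overlapped for all 10 genes. The count was 0 without DMSO replicate A, 1 without DMSO replicate B, 5 without DMSO replicate C, and 0 after TMM scaling. The letters pair the Med2_15 libraries, and with the replicate letter as a block 4 genes were called, all higher. The share of all genes higher in that block fit is not given here, and 44.6% rose in the fit without the block. GSY1 was the 1 gene of the 10 whose change in Med2_15 was above that in Med15 (1.38, SE 0.36, adjusted p = 0.048), where 0.46% of all genes were above, and this call was lost after TMM scaling and without the filter.

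Permanent loss of Med15 was measured against another control. In med15del, 4 of 6 genes tested were higher than in WT on the deposited scale, where 87.6% of all genes were higher and the median log2 change of all genes was 0.52. After TMM scaling none was higher and 1, TPS2, was lower (-0.37, adjusted p = 0.022), where 33.7% of all genes were lower. GSY2 had 15.2, 21.9 and 16 in med15del, against 8.6, 7.95 and 13.9 in WT (log2 change 0.77, SE 0.18, and 0.18 after TMM scaling). TPS3 (0.58, SE 0.093, TMM -0.011), TPS1 (0.40, SE 0.14, TMM -0.20) and NTH1 (0.39, SE 0.093, TMM -0.21) were higher on the deposited scale and did not pass after TMM scaling, and TPS1 was not called without WT replicate A (adjusted p = 0.062) or WT replicate B (adjusted p = 0.061). TPS2 (0.25, SE 0.12) and TSL1 (0.15, SE 0.29) did not pass. TSL1 had 11.6, 23.2 and 11.5 in med15del, against 9.78, 10.1 and 22.3 in WT, with 1 high library in each group. PGM2, GSY1, GLC3 and GPH1 were below the filter. The deletion and the depletion changes differed for 9 of 9 genes, all above in the deletion, where 50.7% of all genes were above, and after TMM scaling for 1, GSY2 (0.81). Of 10 other pathway genes tested, 10 were higher, from GLC7, a phosphatase (0.43), to NTH2 (1.89). Of 11 regulators, 10 were higher, from BCY1, the inhibitory subunit of protein kinase A (0.30), to MSN4 (1.88). Of 4 Msn2/4 targets, 4 were lower, from GPD1 (-2.83) to HSP104 (-0.42). After TMM scaling, where 15.6% of all genes were higher, 4 of the other pathway genes were higher and 1 lower, 1 regulator was higher and 3 were lower, and the 4 Msn2/4 targets were lower. In med16del, 2 of 5 genes tested were lower than in WT, where 8.82% of all genes were lower: TSL1 (-0.73, SE 0.10) and TPS1 (-0.43, SE 0.10), with NTH1 highest (0.20, SE 0.10, not called). WT replicate C had the highest TSL1 and TPS1 of the 3 WT libraries, and without it 1 gene was called, NTH1, which was higher, of 3 tested. After TMM scaling 4 of the 5 were lower, where 27.2% of all genes were. The comparisons of med15del and med16del share their WT libraries.

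Depletion of Med14, the scaffold of Mediator, of Ccl1, or of Med15 and Taf1 together lowered nearly all genes, and each count of the 10 is given beside that share. In Med14, 10 of 10 fell, where 99.7% of all genes fell. In CCL1, 9 of 9 tested fell, where 99.8% of all genes fell, and in Med15_Taf1, 10 of 10 fell, where 99.9% did. Some of the 10 passed the filter only through their higher DMSO libraries. Without DMSO replicate A, 8 were tested in Med14, and without any 1 DMSO library 9 were tested in Med15_Taf1. The genes tested fell further than the typical gene: their median log2 change was -3.17 in Med14 against -1.96 for all genes, -3.14 in CCL1 against -2.17, and -3.20 in Med15_Taf1 against -2.50. After TMM scaling, 9 of 10 were lower in Med14, where 27.5% of all genes were, 9 of 9 in CCL1, where 38.1% were, and 9 of 10 in Med15_Taf1, where 36.7% were.

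In Med14, TSL1 had 11.3, 4.38 and 4.56 with 3IAA, against 255, 67.8 and 138 with DMSO (log2 change -4.23, SE 0.28, and -2.27 after TMM scaling). In CCL1, it had 11.1, 9.45 and 8.67 with 3IAA, against 258, 269 and 178 with DMSO (log2 change -4.44, SE 0.14, and -2.25 after TMM scaling). TSL1 fell most of the genes in both strains, and the 3IAA and DMSO libraries did not overlap. The DMSO libraries of Med14 themselves spread widely, with GPH1 at 73.8, 7.23 and 19.6, against 3.14, 1.24 and 1.2 with 3IAA (-3.09, SE 0.39, and -1.41, adjusted p = 0.074, after TMM scaling). Every 3IAA library of GPH1 was under the filter value of 10, so GPH1 was tested there only through its DMSO libraries. In Med14, GSY2 followed TSL1 (-3.67, SE 0.23), then GSY1 (-3.29, SE 0.25), TPS2 (-3.25, SE 0.21) and GLC3 (-3.24, SE 0.25). PGM2 (-3.01, SE 0.25), TPS1 (-2.93, SE 0.19), NTH1 (-2.91, SE 0.20) and TPS3 (-2.61, SE 0.17) fell less. In CCL1 the order was TSL1, GSY2 (-3.41, SE 0.12), TPS2 (-3.19, SE 0.11), TPS1 (-3.14, SE 0.10), PGM2 (-3.13, SE 0.10), GLC3 (-3.06, SE 0.12), TPS3 (-2.79, SE 0.10), NTH1 (-2.72, SE 0.10) and GSY1 (-2.69, SE 0.19), and GPH1 was below the filter. The CCL1 and Med14 changes were set against each other in 1 fit, and 0 of 10 genes differed with limma, where 18.7% of all genes did; 0 differed after TMM scaling, and with the replicate letter as a block 1 did, GSY1, which fell less in CCL1, where 7.22% of all genes did. At an unadjusted p under 0.05, 0 of the 10 differed.

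In Med15_Taf1, the order was another. TPS2 fell most, with 42.7, 30.4 and 37.2 with 3IAA, against 559, 452 and 479 with DMSO (log2 change -3.73, SE 0.091, and -1.13 after TMM scaling). TSL1 had 34.2, 21.1 and 25.2 with 3IAA, against 452, 275 and 333 with DMSO (-3.67, SE 0.11, and -1.08 after TMM scaling). GSY1 (-3.55, SE 0.12), GSY2 (-3.50, SE 0.10) and GPH1 (-3.38, SE 0.14) came next. GLC3 (-3.03, SE 0.13), TPS3 (-3.02, SE 0.089) and PGM2 (-3.02, SE 0.12) fell by similar amounts. TPS1 (-2.83, SE 0.089) and NTH1 (-2.75, SE 0.088) fell least, and NTH1 was not called after TMM scaling (-0.17, adjusted p = 0.054). The fall in Med15_Taf1 was larger than that in Med15 for 9 of 9 genes, where 99.8% of all genes fell more. After TMM scaling TPS2 alone of the 9 differed (-0.67), where 23% of all genes were lower. The fall in Med14 was larger than in Med15 for 10 of 10, where 99.4% of all genes fell more, and for 5 after TMM scaling, where 16.9% did, namely TPS2, TPS3, GSY1, GSY2 and GLC3.

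Of the other pathway genes, 15 of 15 tested fell in Med14, 15 of 15 in CCL1 and 18 of 18 in Med15_Taf1. HXK1 fell most in each (-4.32 in Med14, -4.28 in CCL1 and -4.48 in Med15_Taf1), while GDB1, the glycogen debranching enzyme, fell least in Med14 (-0.60) and CCL1 (-0.56), and NTH2 in Med15_Taf1 (-1.22). All 12 regulators fell in the 3 strains, with MSN4 least in Med14 (-1.56), MSN2 in CCL1 (-1.005) and SNF1 in Med15_Taf1 (-2.23). The Msn2/4 targets that were tested also all fell, 12 in Med14, 10 in CCL1 and 11 in Med15_Taf1, led by GPD1 (-4.52 in Med14, -4.46 in CCL1 and -4.78 in Med15_Taf1), while RTN2 fell least in Med14 (-1.76) and CCL1 (-1.503) and PRX1 in Med15_Taf1 (-1.07). After TMM scaling, 30% of all genes were higher in Med14, 36.5% in CCL1 and 38.4% in Med15_Taf1. Of the other pathway genes, 3 were then higher and 6 lower in Med14, 4 higher and 8 lower in CCL1, and 5 higher and 9 lower in Med15_Taf1. Of the regulators, 0 were higher and 5 lower in Med14, 4 higher and 5 lower in CCL1, and 4 higher and 6 lower in Med15_Taf1. Of the Msn2/4 targets, 0 were higher and 6 lower in Med14, 2 higher and 7 lower in CCL1, and 3 higher and 8 lower in Med15_Taf1.

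The 4 degrons Med10, Med14C, Med17 and Med7N, all of subunits of Mediator's core, gave falls in every gene tested. In Med10, 10 of 10 genes fell, where 99.8% of all genes fell, from TPS3 (-2.59, SE 0.094) to TSL1 (-4.10, SE 0.14). Without DMSO replicate A or B, 9 of the 10 passed the filter in Med10. In Med14C, 10 of 10 fell, where 99.9% did, from TPS3 (-2.06, SE 0.081) to TSL1 (-3.64, SE 0.077). In Med17, 6 of 6 tested fell, where 99.7% did, from TPS1 (-2.01, SE 0.10) to TSL1 (-3.22, SE 0.15), and PGM2, GSY1, GLC3 and GPH1 were below the filter. After TMM scaling 10 were lower in Med10, where 36.7% of all genes were, 10 in Med14C, where 31.7% were, and 6 in Med17, where 25.9% were. TSL1 was at -1.94 in Med10, -1.80 in Med14C and -1.55 in Med17 on that scale, and its 3IAA and DMSO libraries did not overlap in any of the 3 strains. In Med7N, 10 of 10 fell, where 99.2% did, from TPS3 (-0.92, SE 0.10) to GPH1 (-1.97, SE 0.11), and 9 were lower after TMM scaling, where 20.2% of all genes were, TPS3 being the exception.

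The shift of all genes was smaller in TID, Med7 and Med7C. In TID, 7 of 10 genes fell, where 4.86% of the 4755 genes tested fell. TSL1 had 68.4, 94.3 and 96.1 with 3IAA, against 130.3, 235 and 269.6 with DMSO (log2 change -1.24, SE 0.24, adjusted p = 0.008), GSY2 had 56.4, 73.4 and 80.3, against 100.4, 173 and 174 with DMSO (-1.05, SE 0.21), and GPH1 had 17.3, 28.5 and 26.9, against 30.1, 61.5 and 76.2 with DMSO (-1.11, SE 0.28). No group overlapped for any of the 10 genes, though overlap was not counted over all genes. DMSO replicate A was the lowest DMSO library for all 10 of them. The count was 0 without DMSO replicate B, and 3 without DMSO replicate C or 3IAA replicate C. With the replicate letter as a block 9 genes were called, all lower, where 10.3% of all genes were, with NTH1 (-0.41, adjusted p = 0.00069) and GLC3 (-0.51, adjusted p = 2.8e-05) in addition, and TPS3 (-0.21, SE 0.11) was not. After TMM scaling 5 were lower, where 5.76% of all genes were. In Med7, 8 of 9 genes tested fell, where 9.01% of all genes fell. TSL1 had 24.8, 37.8 and 24.2 with 3IAA, against 91, 109 and 65.8 with DMSO (-1.58, SE 0.19, adjusted p = 3e-09), without overlap, and TPS3 changed least (-0.35, SE 0.18, not called). The count was 5 without 3IAA replicate C or without DMSO replicate B, and 6 after TMM scaling, where 5.91% of all genes were lower. In Med7C, 10 of 10 fell, where 95.2% of all genes fell, from TPS3 (-0.86, SE 0.10) to GPH1 (-1.92, SE 0.13), and 10 of 10 were lower after TMM scaling, where 14.8% of all genes were lower.

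The pairs of related degrons were set against each other. Loss of Med14C lowered all 10 genes more than loss of TID, where 99.6% of all genes fell more, and after TMM scaling 1 of the 10 differed, TPS2 (-0.51), where 16.8% of all genes were lower. Between Med7N and Med7C, 1 of 10 genes differed, GSY1, which fell less in Med7N (0.35, SE 0.14, adjusted p = 0.048), where 1.2% of all genes fell less. After TMM scaling 5 of the 10 fell less in Med7N, where 5.43% of all genes did, with TSL1 at 0.74 and PGM2 at 0.69.

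The falls in Med19 and Med31 lay nearer to the median of all genes. In Med19, 10 of 10 fell, where 97.7% of all genes fell, and their median log2 change was -1.24, against -1.23 for all genes. TSL1 had 152, 102 and 71.5 with 3IAA, against 285, 261 and 222 with DMSO (-1.29, SE 0.15, and -0.027 after TMM scaling). TPS1 (-1.26, SE 0.15), TPS2 (-1.27, SE 0.15), NTH1 (-1.27, SE 0.15) and GLC3 (-1.22, SE 0.17) lay at the same size. TPS3 fell most (-1.48, SE 0.15) and was the 1 gene of the 10 that was lower after TMM scaling (-0.24, adjusted p = 0.033). PGM2 (-0.80, SE 0.16), GSY2 (-0.93, SE 0.15), GSY1 (-1.03, SE 0.15) and GPH1 (-1.10, SE 0.18) fell on the deposited scale and were above 0 after TMM scaling, where GSY2 was the 1 gene called higher (0.32, adjusted p = 0.022). Of the other pathway genes, 15 of 17 tested fell, from PIG2 (-1.64) to GLK1 (-0.47). Of the regulators, 11 of 12 fell, from GIS1 (-1.64) to TPK3 (-0.86), and of the Msn2/4 targets 7 of 12 tested fell, from HSP104 (-2.64) to GPD1 (-0.31). After TMM scaling, 21.8% of all genes were higher and 19.1% lower. Of the other pathway genes 6 were then higher and 1 lower, of the regulators 4 were higher and 4 lower, and of the Msn2/4 targets 8 were higher and 2 lower. In Med31, 10 of 10 fell, where 97.3% did, from GLC3 (-0.73, SE 0.14) to TSL1 (-1.38, SE 0.12). Their median was -1.02, against -0.83 for all genes, and 4 were lower after TMM scaling, where 19.9% of all genes were: TPS1, TPS2, TSL1 and GPH1. The Med19 fall was larger than the Med31 fall for 2 of the 10 genes, TPS3 (-0.54, SE 0.18) and GLC3 (-0.49, SE 0.21), where 44.9% of all genes fell more, and for none after TMM scaling. The genotype given for the Med31 libraries names a MED19 degron, so this may not be a difference between 2 subunits.

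After depletion of Med1, Med5 or both, of the middle and tail modules, the count of the 10 genes called depended on the fit. In Med1, 3 of 9 tested rose, where 1.83% of all genes rose and 36.2% fell. They were GSY1 (0.45, SE 0.12, adjusted p = 0.0035), TSL1 (0.38, SE 0.13) and GSY2 (0.31, SE 0.13), all with overlapping groups, and TPS3 was lowest (-0.21, SE 0.11). The count was 0 without 3IAA replicate B, 5 without DMSO replicate B, and 1, which was lower, without DMSO replicate C. It was 0 after TMM scaling (7 at an unadjusted p under 0.05), where all 9 log2 changes were at or above 0, and 0 by edgeR on recovered reads. The share of all genes at that unadjusted threshold was not counted. In Med5, 0 of 10 passed with limma, where 0.701% of all genes passed, with 1 at an unadjusted p under 0.05, 0 after TMM scaling and 1 without 3IAA replicate A. The letters pair the Med5 libraries, and with the replicate letter as a block 6 genes were called, all higher, where 2.72% of all genes were: TPS2 (0.30, adjusted p = 0.00022), TSL1 (0.33, 0.00011), PGM2 (0.36, 0.038), GSY1 (0.41, 0.0017), GSY2 (0.43, 7.8e-06) and GPH1 (0.46, 0.017). GSY2 had 148, 269 and 223 with 3IAA, against 112, 187 and 173 with DMSO, so that each 3IAA library was above the DMSO library of its letter although the groups overlapped. In Med1_5, 1 of 9 was called, TPS3, which fell (-0.44, SE 0.15), where 78% of all genes fell, and GSY2 was highest (0.14, SE 0.15). The count was 0 without 3IAA replicate C and 3, of which 2 were higher, without DMSO replicate A. After TMM scaling 4 of the 9 were higher, TPS1, TSL1, GSY1 and GSY2, where 3.37% of all genes were.

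The comparisons of med7N_del and Med7_EWE3 share their Med7_WT libraries. In the 4 plasmid-borne mutants, all or all but 1 of the genes tested were lower than in the matched wild type on the deposited scale. The counts were 6 of 7 in med7N_del, where 99% of all genes were lower, 6 of 6 in Med7_EWE3, where 97% were, 7 of 7 in Med21_EWE4, where 98.3% were, and 7 of 7 in Med6_delH1, where 99.8% were. PGM2, GLC3 and GPH1 were below the filter in all 4, and GSY1 also in Med7_EWE3. The range ran from GSY2 (-1.49, SE 0.11) to GSY1 (-0.096, SE 0.12, not called) in med7N_del and from GSY2 (-1.21, SE 0.13) to TPS2 (-0.46, SE 0.13) in Med7_EWE3. It ran from GSY1 (-1.995, SE 0.23) to NTH1 (-0.83, SE 0.19) in Med21_EWE4 and from GSY1 (-2.19, SE 0.14) to TPS1 (-1.12, SE 0.15) in Med6_delH1. After TMM scaling few of the genes passed: 1 of 7 was lower in med7N_del (GSY2), where 16.5% of all genes were, 2 of 6 were higher in Med7_EWE3 (TPS2 and NTH1), where 19.6% were, 0 of 7 changed in Med21_EWE4 (0 also by edgeR on recovered reads, and 1 at an unadjusted p under 0.05), and 2 of 7 were lower in Med6_delH1 (TSL1 and GSY1), where 9.49% were. Without Med21_WT replicate B, the call of NTH1 in Med21_EWE4 on the deposited scale was lost (adjusted p = 0.10).

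**Figure D5:**
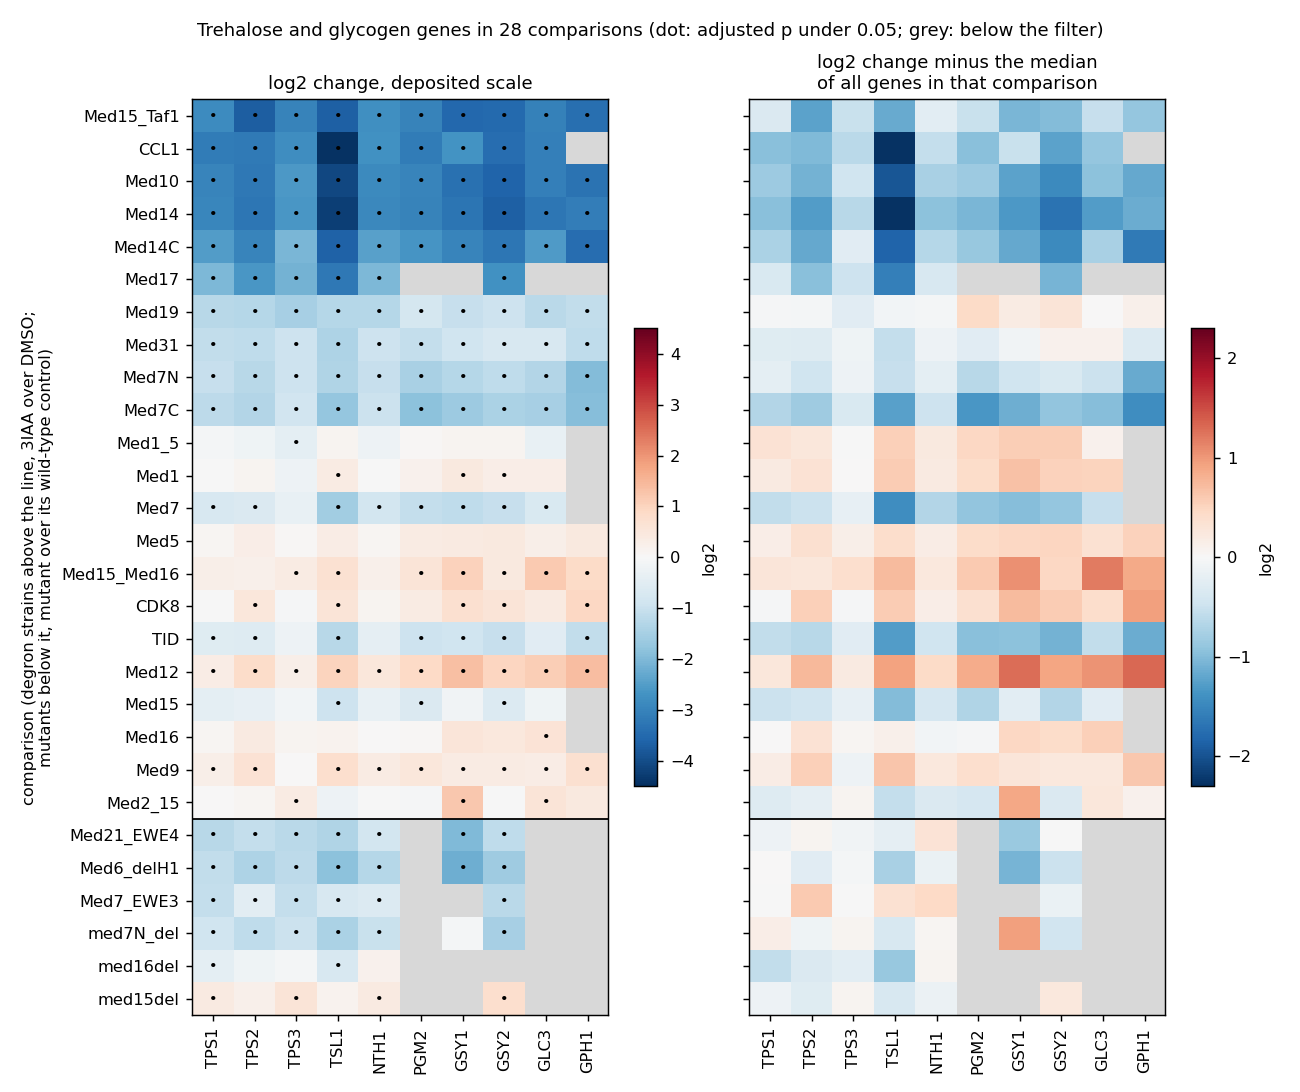
Log2 change of the 10 genes in 28 comparisons, on the deposited scale (left, with dots where the adjusted p was under 0.05) and after the median of all genes in that comparison was taken off (right); degron strains are sorted by that median, and grey marks genes below the filter. TSL1 is the deepest blue in Med14, CCL1 and Med10, the rows of Cdk8, Med12, Med9 and Med15_Med16 are mostly red, and in the right panel TPS3 is paler than TSL1 in Med14, Med10 and Med14C.

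Among the 22 degron comparisons, TSL1 had the lowest log2 change of the genes tested in 10 and TPS3 the lowest in 7, while TPS3 had the highest in 8. TSL1 and TPS3 encode regulatory subunits of the same complex. In Med14, Med10, Med14C, TID, Med7 and Med15, TSL1 was lowest and TPS3 highest, and in Cdk8, Med12, Med5 and Med9, where genes rose or did not pass, TPS3 was lowest. The 6 genes tested in all 22 were TPS1, TPS2, TPS3, TSL1, NTH1 and GSY2. Their changes after removal of each comparison's median varied together. Pearson's r of each with the mean of the others was 0.989 for TSL1, 0.978 for GSY2, 0.955 for TPS1, 0.954 for TPS2, 0.952 for NTH1 and 0.853 for TPS3, as a description over 22 comparisons. Among 3241 other genes tested in all 22, the median r with the mean of the 6 was -0.04, and the highest 5% began at 0.78. The 10 genes with the most similar pattern were PNC1 (0.957), a nicotinamidase, UGP1 (0.951), which makes the UDP-glucose used for both trehalose and glycogen, PTK2 (0.948), TPK2 (0.934), a catalytic subunit of protein kinase A, SKN1 (0.934), APE1 (0.932), a vacuolar aminopeptidase, GPD1 (0.931), MSC1 (0.931), YPL247C (0.926) and CYT1 (0.919), cytochrome c1. The comparisons share no libraries, but they share processing and several deplete the same subunit, so these values describe likeness and carry no test.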

How the data were processed

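RNA labelled for 5 min with 4-thioU was profiled in 177 libraries of 60 groups (57 of 3 libraries and 3 of 2), each a table of 5794 genes. The authors deposited whole read counts per gene for the 15 stress libraries, per the file headers and values, and for the other 162 libraries a normalised signal per gene with 2 decimals. The submitters' processing notes name Bowtie2, HTSeq and the builds sacCer3 and ASM294v2 with no role, and the basis of the scaling is not given in the sources used here. Groups followed the labels. Names and coordinates came from RefSeq R64, where 5792 genes matched.

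Counts were tested with edgeR 4.0.16 (quasi-likelihood F test, TMM scaling, filterByExpr, 1 fit over 5 groups), and levels are TMM-scaled CPM. Signal was tested with limma 3.58.1 (R 4.3.3, moderated with a trend) on log2(signal + 1), so fold changes are on that scale and understate changes of low genes, over genes whose signal averaged 10 or more. That mean was over all libraries compared, so a gene low in 1 group could pass through another. P-values were adjusted by Benjamini and Hochberg over all genes tested, and a call needs an adjusted p under 0.05. Whole reads were recovered from the signal steps in 106 of 162 libraries, with at least 96.52% of the low values of each library whole within 0.1 of a step. The edgeR test on these reads was an alternative in 12 results, where it called between 66 and 2419 genes, against between 37 and 2185 by limma after TMM scaling. Further alternatives were TMM scaling of the signal, a pseudocount of 10, no filter, DESeq2 1.42.0, RLE size factors, a replicate block and leaving out each library. Both fits were tested on simulated data. No 2 libraries held identical values.

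Replicate letters come from the titles. They were taken to pair libraries where every same-letter pair's deviations correlated above 0.1 in 3 pairs, which held in 15 of 33 comparisons. Among these were Med15, Med16, Med15_Med16, Med2_15, Med5, TID and Med15 depletion under HS and under SM. The 10 genes and the lists were chosen with earlier results of these data known. All 10 genes are named in 11 comparisons and the highest and lowest elsewhere; from each other list the called genes with the highest and lowest change are named, and then the 10 genes with the most similar pattern. A result that this rule would name is not reported here. Genes named beyond this rule, in Cdk8, Med12, Med9, Med15_Med16, TID, Med2_15 and others, were chosen after their values were seen. No 3IAA libraries of Med15_Spt7 were analysed here, so its DMSO libraries entered no comparison.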

Additional observations from a re-analysis of the deposited data

Results flagged for a closer look

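The effects of different depletions on the 10 genes were compared by a test of the difference itself, and in 10 of the 12 such comparisons at least 1 gene differed. With Taf1 depleted besides Med15, 9 genes fell more than with Med15 alone, and with Med14 depleted 10 fell more than with Med15, but after TMM scaling 1 and 5 did. Of all genes, 99.8% fell more with Taf1 depleted too and 99.4% with Med14 depleted. For Med14C against TID the number was 10, where the change of 99.6% of all genes was lower in Med14C, and 1 after TMM scaling. For the deletion of MED15 against its depletion it was 9, where the change of 50.7% of all genes was higher in the deletion, and 1 after TMM scaling. Med15_Med16 against Med15 gave 7, all higher in Med15_Med16, where 2.27% of all genes were. After TMM scaling it gave 9, all higher, where 222 of the 4925 genes tested were. Med15 depletion under HS against SM gave 4, all lower under HS, where 28.5% of all genes differed in either direction. Med16 against Med15 gave 2, where 1.61% of all genes were higher. Med19 against Med31, whose genotype label names a MED19 degron, gave 2, where the change of 44.9% of all genes was lower in Med19. Med7N against Med7C gave 1, where 1.2% were higher, and Med2_15 against Med15 gave 1, where 0.46% were higher, and 0 after TMM scaling or without the filter. Beside the difference between Med15_Med16 and Med15, TSL1 with DMSO stood at 283, 188 and 150.1 in Med15_Med16 and at 164, 83.8 and 76.1 in Med15, on a scale whose basis is not given, and the part of this in the result was not tested.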

How the results depend on the processing

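Counts of genes called are given throughout, in either direction. The share of all genes called in the same fit is not given here, so no count is a result about the 10 genes by itself. TMM scaling, which removes a shift of all genes, gave 0 in Med1, Med2_15, Med16 and Med21_EWE4, 1 in med15del and med7N_del, 2 in Med19, Med7_EWE3 and Med6_delH1, and 4 in Med1_5 (all higher, against 1 lower in the main fit), Med31 and med16del. For the differences it gave 1 for Med15_Taf1 minus Med15, Med14C minus TID and med15del minus Med15, 5 for Med14 minus Med15 and for Med7N minus Med7C, and 0 for Med19 minus Med31 and Med2_15 minus Med15. On that scale the sign turned for GPH1 (0.043), GSY1 (0.20), GSY2 (0.32) and PGM2 (0.41) in Med19, for GLC3 in Med31 (0.088), for TPS2 (-0.37), NTH1 (-0.21), TPS1 (-0.20) and TPS3 (-0.011) in med15del, for TPS2 in Med7_EWE3 (0.59), for NTH1 in Med21_EWE4 (0.31) and for TPS1 in Med6_delH1 (0.048). By edgeR on recovered reads the counts were 0 in Med1, Med2_15, Med16, Med21_EWE4 and Med19 minus Med31, 2 in Med19, and 4 in Med1_5 (all higher) and Med31. There the sign turned for TPS2 (0.0023), TPS1 (0.0053), GPH1 (0.072), GSY1 (0.21), GSY2 (0.33) and PGM2 (0.44) in Med19, GLC3 in Med31 (0.067) and NTH1 in Med21_EWE4 (0.32). Without the filter, which leaves more genes to adjust over, the counts were 0 in Med16 and for Med7N minus Med7C, Med16 minus Med15 and Med2_15 minus Med15, 1 in Med1 and Med19 minus Med31, 4 in TID, 6 in med16del (1 higher and 5 lower), 7 in med15del, and 10 in Med17 and Med7_EWE3. With the filter, 99.7% of all genes were lower in Med17 and 97% in Med7_EWE3, and 87.6% were higher in med15del. A pseudocount of 10 gave 1 for Med19 minus Med31. With the replicate block the counts were 6 in Med5, 2 in Med1_5, 1 in Med15, 4 in Med16, 1 for CCL1 minus Med14, 4 for Med7N minus Med7C, 2 for Med2_15 minus Med15 and 7 for CDK8 minus Med12, and it moved no other count by over 1.5 times. Leaving out 1 library gave 0 to 3 in Med15, 3 to 8 in Med15_Med16, 1 to 6 in Med15_in_SM, 0 to 4 in Med16, 0 to 5 in Med1, 0 to 3 in Med1_5, 0 to 5 in Med2_15, 0 to 1 in Med5, 5 to 8 in Med7, 4 to 8 in SM, 0 to 9 in TID and 1 to 3 in med16del, and was not run for the differences. Where it leaves 1 library in a group, that library is assumed to vary like the others. For single genes, RLE size factors kept 60 of 60 stress results and DESeq2 57 of 60. The causes of these changes were not tested unless stated. The SEs and p-values measure the spread between libraries, which may be technical, and 56 libraries have no known depth.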

Other observations

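The strain Med15_Spt7, with degrons on MED15 and on SPT7, a subunit of the SAGA coactivator, entered no comparison, since only its DMSO libraries were analysed here. TSL1 had a signal of 272, 296 and 338 in its 3 libraries, TPS1 had 179.9, 181 and 235, and TPS2 had 393, 439 and 514. TPS3 had 96.3, 107 and 125, NTH1 had 158, 162 and 200.3 and PGM2 had 27.8, 30.8 and 37.2. Of the glycogen genes, GSY2 had 135, 141 and 175, GSY1 had 63, 46.5 and 85.2 and GLC3 had 19.2, 20.9 and 26.1. GPH1 was the lowest of the 10, with 10.8, 12.6 and 15.4.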
